A study of Mus musculus with 12 samples.

Results

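Ribosome biogenesis factors are the proteins that transcribe ribosomal RNA in the nucleolus, modify and cut it, and fold it with ribosomal proteins into the small and large subunits. They are not part of the finished ribosome. A list of 38 genes was followed, of which 6 are not such factors. These are Odc1, Srm, Cad, Apex1, Nme1 and Tfb2m, growth enzymes and other genes. They are usually counted with the factors because the transcription factor MYC activates both. Below, the word factors covers all genes of the list. The genes were chosen by name, and each was read from its brightest probe set over all arrays. A probe set with a single gene symbol was found for 37 of the 38, out of 18193 genes with such a probe set. Mrto4, an assembly factor of the large subunit, had none in the table used and is named only. All 37 passed the filter on low values, with mean intensities from 275 to 35402. The rule that names them uses no measured change, but the list was drawn up with earlier results of these data known.

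Messenger RNA was measured on 12 Affymetrix arrays of G1ME cells, 1 mouse cell line of progenitors for megakaryocytes and red cells that lacks GATA1 according to its labels. GATA1 is a zinc finger transcription factor that red cells and megakaryocytes need in order to mature. All cells were transduced with MIGR1, a retrovirus that marks infected cells with GFP, and GFP-positive cells were sorted for RNA. The 4 groups of 3 arrays were empty vector at 18 h, GATA1 at 18 h, empty vector at 42 h and GATA1 at 42 h after transduction. The arrays carry the letters A, B and C and are described as biological triplicates, but the labels do not say which culture each came from. The p-values therefore measure the spread between these samples. The retroviral promoter, not the gene's own, drives GATA1 here, and all groups share the viral transduction and the sort.

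Making ribosomes is a major biosynthetic effort, and dividing progenitors run it at a high rate. RNA polymerase I makes the ribosomal RNA precursor, small nucleolar ribonucleoproteins (snoRNPs) direct its chemical modification, the small subunit processome and the large subunit factors assemble its parts, and the polyamine and nucleotide enzymes supply material. Red cell maturation ends with the loss of the nucleolus and nucleus.

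The label was checked first. The probe set of Gata1 read 3137 ± 116 (SD, n = 3) at 42 h with vector and 2044 ± 355 with GATA1, lower where GATA1 was supplied, so that it does not check the labels and the groups are called by them. Gata2, a GATA factor of progenitors, fell by 2.36 on the log2 scale at 42 h, and Kit, the receptor of stem cell factor, fell by 3.42 (limma, adjusted p = 0.000541 and 4.72e-06). Both belong to a list of progenitor markers, of which 5 were tested, and 3 of these fell and 1 rose. The summed intensity of that list lay between 16126 and 17700.2 with vector at 42 h and between 17890.7 and 19232.5 with GATA1. All 8 tested erythroid markers rose at 42 h, and their summed intensity went from between 8527 and 10000 on the vector arrays to between 46539 and 51769 on the GATA1 arrays. The summed intensity of 5 cell division markers lay between 61475 and 65180 with vector and between 60650 and 67842 with GATA1, and 1 of the 5 was called higher. Of 6 megakaryocyte markers 4 rose and 1 fell, with sums of 14594 to 15278 with vector and 27103 to 33556 with GATA1. The 1 mast cell marker tested and 2 of 5 macrophage and neutrophil markers fell. The sums of the mast cell list went from between 1543 and 2613 to between 56.8 and 86.9, and those of the macrophage and neutrophil list from between 814 and 1166 to between 388 and 514. What part these markers had in the changes given next was not tested. In RNA from a whole sorted population, fewer cells of a type and less RNA per cell cannot be told apart.

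At 42 h GATA1 cells had more RNA of Odc1, Noc3l, Pes1 and Rrs1 and less of Apex1. The other 32 factors did not pass the test in the fit without the replicate letters. The 5 changes were between 1.24-fold and 1.39-fold. Odc1 and Apex1 are among the 6 growth enzymes and other MYC target genes of the list, of which 1 rose and 1 fell. Thus 13.5% of the factors changed, against 20.9% of the 10759 genes tested. In the upward direction the count was 4 of 37, against 10.3% of all genes, and downward it was 1 of 37, against 10.6%. In this fit, which does not use the replicate letters, the share of factors that changed was not above that of all genes. With the letter as a block, which compares same-letter arrays, 11 of 37 passed, 29.7% against 28.4% of all genes. The factors gained there are named below. Changes are differences of mean log2(intensity + 16), which understate the change of dim genes, and calls are Benjamini-Hochberg adjusted p-values under 0.05 over all genes tested.

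Odc1 encodes ornithine decarboxylase, the rate-limiting enzyme of polyamine synthesis. Its intensities were 14554, 14816 and 14338 on vector arrays A, B and C at 18 h, 14393, 14801 and 14098 on the GATA1 arrays at 18 h, 13324, 14399 and 15081 with vector at 42 h, and 19924, 20513 and 18888 with GATA1 at 42 h. The 9 arrays of the other groups lay between 13324 and 15081 and every GATA1 array at 42 h lay above them. The change at 42 h was 0.47 (95% interval 0.36 to 0.59; limma, adjusted p = 0.000157), a 1.39-fold rise. At 18 h it was -0.01, with an interval from -0.13 to 0.10. The suffix of this probe set marks possible cross-hybridisation, and the second brightest probe set of Odc1 gave 0.47 at 42 h as well (adjusted p = 0.00403).

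Noc3l, which works with Noc2l on the maturation of the large subunit precursor, was also higher. It read 230, 259 and 250 with vector at 18 h, 263, 262 and 263 with GATA1 at 18 h, 221, 258 and 267 with vector at 42 h, and 342, 335 and 353 with GATA1 at 42 h. The GATA1 arrays at 42 h lay above all others. The change at 42 h was 0.44 with an SE of 0.07 (limma, adjusted p = 0.00124), and at 18 h it was 0.09 (adjusted p = 0.936).

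Pes1 is a subunit of PeBoW, the complex of Pes1, Bop1 and Wdr12 needed to cut the large subunit RNA out of its precursor. Its intensities were 1538, 1688 and 1695 with vector at 18 h, 1712, 1747 and 1731 with GATA1 at 18 h, 1817, 1693 and 1830 with vector at 42 h, and 2097, 2185 and 2457 with GATA1 at 42 h. The groups did not overlap at 42 h. The change was 0.33 with an SE of 0.06 (limma, adjusted p = 0.00509). The second brightest probe set of Pes1, read at 262 and 281 in the 2 groups at 42 h, gave a change of 0.10 (adjusted p = 0.622), so the call was lost there. Its partners did not pass the test at 42 h: Bop1 had a change of 0.08 and Wdr12 of 0.04. The second probe set of Wdr12 gave -0.19.

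Rrs1 brings an early ribonucleoprotein, with its own small ribosomal RNA, into the large subunit precursor. It read 3718, 3887 and 4629 with vector at 18 h, 4355, 4223 and 4142 with GATA1 at 18 h, 4387, 4247 and 4826 with vector at 42 h, and 5583, 5630 and 5477 with GATA1 at 42 h. The groups were apart at 42 h and overlapped at 18 h. The change at 42 h was 0.31 with an SE of 0.08 (limma, adjusted p = 0.0195). It was the least firm of the 5: among the 42 h arrays, leaving out vector A raised the adjusted p to 0.0636, leaving out vector B to 0.0710 and leaving out GATA1 B to 0.0623. Without the arrays lettered A it was 0.124. The suffix of its probe set too marks possible cross-hybridisation, and the second probe set gave the same change of 0.31 with an adjusted p of 0.212.

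Apex1, an endonuclease of DNA repair and redox factor that MYC target lists include, was the only factor that fell. It read 8497, 9191 and 8608 with vector at 18 h, 7317, 8131 and 8074 with GATA1 at 18 h, 8932, 8452 and 8994 with vector at 42 h, and 7209, 7033 and 7059 with GATA1 at 42 h. GATA1 arrays lay below vector arrays at both times. It fell by 0.31 at 42 h (SE 0.05; limma, adjusted p = 0.00216). The value at 18 h was -0.16 and did not pass (adjusted p = 0.226). A second probe set, which may cross-hybridise by its suffix, gave -0.26 at 42 h with an adjusted p of 0.0656.

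**Figure D1:**
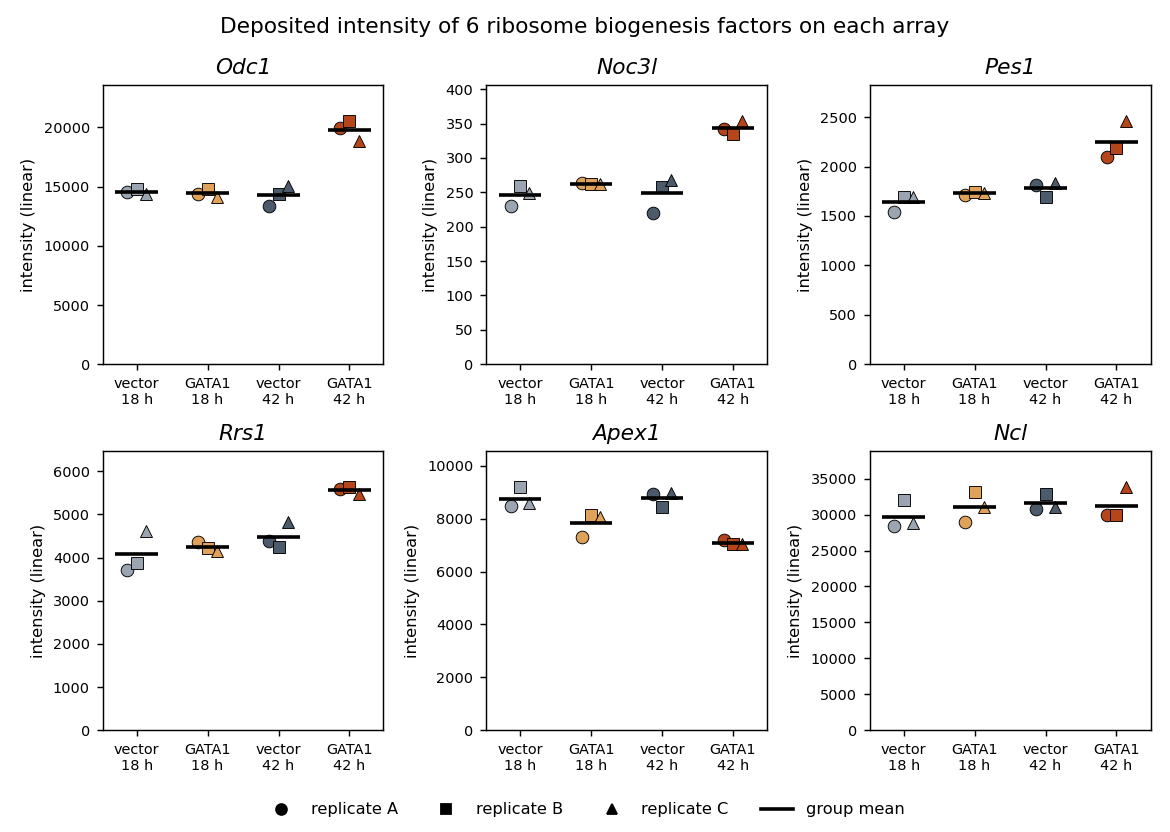
Deposited linear intensity (vertical axis, from 0) of the 5 factors that changed at 42 h and of Ncl, 1 point per array with the shape giving the replicate letter and a bar at the mean of 3 arrays. The GATA1 arrays at 42 h stand above the other 9 for Odc1, Noc3l, Pes1 and Rrs1 and below them for Apex1, while those of Ncl overlap the rest.

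Promoter sequences were set beside these changes because MYC binds the E-box CACGTG and GATA1 binds GATA sites. RefSeq promoter windows of mouse assembly GRCm38.p6, 250 bases before to 50 after a start site, were matched by symbol for 32 of the 38 genes. The 4 stretches shown run from 90 bases before to 30 after the start and belong to the changed genes that had a window. Capitals mark E-boxes, and all are written 5′ to 3′ on the gene's strand.
Odc1 (chr12:17544783-17544902, plus strand, GRCm38.p6): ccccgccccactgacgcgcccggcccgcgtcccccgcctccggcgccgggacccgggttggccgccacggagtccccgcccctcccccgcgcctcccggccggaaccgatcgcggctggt
Noc3l (chr19:38819208-38819327, minus strand, GRCm38.p6): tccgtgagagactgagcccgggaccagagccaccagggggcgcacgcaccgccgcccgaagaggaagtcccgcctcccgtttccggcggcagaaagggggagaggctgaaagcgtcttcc
Pes1 (chr11:3963885-3964004, plus strand, GRCm38.p6): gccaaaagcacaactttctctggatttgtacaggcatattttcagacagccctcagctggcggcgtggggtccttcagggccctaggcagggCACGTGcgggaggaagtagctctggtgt
Apex1 (chr14:50924859-50924978, plus strand, GRCm38.p6): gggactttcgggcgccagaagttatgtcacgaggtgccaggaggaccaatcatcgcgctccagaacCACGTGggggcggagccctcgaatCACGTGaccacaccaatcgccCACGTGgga

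Apex1, which fell, held 3 E-boxes and Pes1, which rose, held 1 just after its start. The windows of Odc1 and Noc3l held none, and for both genes the window's start site is not the outermost one of the gene. Over the 300-base windows, 8 of 32 factors (25%) held CACGTG, which reads the same on both strands, against 8.09% of 27025 genes in the table. The 8 were Imp4, Nop2, Pes1, Mybbp1a, Utp20, Nme1, Apex1 and Wdr43. A GATA site was taken as GATAA or GATAG with an A or a T before it, on either strand, and was found in 2 of 32 (Rrp9 and Dkc1, 6.25%), against 33% of all genes. The factors' windows had a median GC content of 59.7%, against 52.7%, and the difference in motif shares was not tested. A match is a description of the letters, not of binding.

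None of the 3 nucleolar chaperones and scaffolds passed the test at 42 h, with adjusted p from 0.408 to 0.965 (limma). Nucleophosmin, Npm1, a histone and ribosome chaperone, read 34843 with vector and 35979 with GATA1 at 42 h, a change of 0.05 with an interval from -0.03 to 0.12. Nucleolin, Ncl, which binds the ribosomal RNA precursor, read 31563 and 31249, a change of -0.02 with an interval from -0.17 to 0.14. Nolc1, a chaperone of snoRNPs, had a value of 0.25 with a wide interval, -0.22 to 0.72.

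The snoRNP core proteins were all below the threshold at 42 h. In the box C/D particle, which methylates ribosomal RNA, the methyltransferase fibrillarin, Fbl, changed by -0.02 (interval -0.17 to 0.12) and Nop56 by -0.08. Nop58 varied most between arrays, from 2444 to 6522. Its interval at 42 h reached from -0.95 to 0.67 in the fit without the letters, which cannot show a change inside it. With the letter as a block its SE at 42 h went from 0.36 to 0.12, and it did not pass (limma, adjusted p = 0.485). In the box H/ACA particle, which makes pseudouridine, the values were -0.10 for the synthase Dkc1, -0.13 for Gar1 and 0.04 for Nhp2. The second probe set of Dkc1 gave -0.43 (limma, adjusted p = 0.145). Gar1 had an adjusted p of 0.152 (limma) and its interval ended just below 0.

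Polr1b, the second largest subunit of RNA polymerase I, read 906, 967 and 1082 with vector and 1141, 1154 and 1205 with GATA1 at 42 h. The groups did not overlap, yet the change of 0.24 did not pass the test without the letters (limma, adjusted p = 0.188). With the letter as a block it passed (limma, adjusted p = 0.03125). Ddx21, a helicase of ribosomal RNA transcription and processing, had a value of 0.24 and Mybbp1a, a nucleolar protein that restrains transcription, of 0.02. With the block Ddx21 passed as well (limma, adjusted p = 0.0162). The second probe set of Mybbp1a gave -0.14.

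In the small subunit processome 5 of 6 values were positive and none passed in the fit without the letters. Rrp9, a subunit of the snoRNP that guides the first cuts, had the largest, 0.44 (limma, adjusted p = 0.190). Its intensities at 42 h were 419, 489 and 585 with vector and 561, 695 and 796 with GATA1, and the groups overlapped. Rrp9 also had the largest positive value at 18 h, 0.26, with 324, 490 and 539 against 441, 558 and 612. In each letter the GATA1 array was above its vector array at both times. With the letter as a block Rrp9 passed at 42 h (limma, adjusted p = 0.00187), and so did Imp4 (adjusted p = 0.0320). Noc4l had 0.39 (adjusted p = 0.112) with GATA1 and vector arrays fully apart, and its second probe set gave 0.53 and passed (adjusted p = 0.0172). The other values were Imp4 0.27, Wdr43 0.18, Rrp12 0.11 and Utp20 -0.06.

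Of the 10 large subunit factors outside PeBoW, Noc3l and Rrs1 rose. Below the threshold were Nop2, a methyltransferase of the large ribosomal RNA, with 0.23, Wdr74 with 0.21, Ppan with 0.18, Noc2l with 0.15, the helicase Ddx18 with 0.13 and Nop16 with 0.09. With the letter as a block Wdr74 and Ddx18 passed (limma, adjusted p = 0.0198 and 0.0336). The nucleolar GTPase nucleostemin, Gnl3, had a change of 0.01 with an interval from -0.11 to 0.13. Pa2g4, a growth-regulating RNA-binding protein, had -0.15, and its second probe set had 0.13.

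Among the growth enzymes only Odc1 rose. Spermidine synthase, Srm, which uses the product of Odc1, read 5289, 6089 and 5728 with vector and 6700, 6286 and 7801 with GATA1 at 42 h. These did not overlap, but the change of 0.28 did not pass (limma, adjusted p = 0.376). Cad, which starts pyrimidine synthesis, had 0.07, Tfb2m, a factor of mitochondrial transcription, -0.09, and the nucleoside diphosphate kinase Nme1 -0.12.

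Over all 37 factors at 42 h, 26 values were positive and 11 negative, with a median of 0.09, against 0.0011 over all genes tested. The median went to 0.19 without GATA1 42 h replicate A and to 0.05 without GATA1 42 h replicate C. In the fit without the letters, 9 factors had p under 0.05 before an adjustment for the number of genes (24.3%), against 31.7% of all genes. For 9 factors, 8 higher and 1 lower, GATA1 and vector arrays were fully apart, and this held for 33.4% of all genes. In the fit without the letters the 95% interval lay within 1.5-fold in both directions for 27 of 37 and for 67.6% of all genes. The bound was chosen after the values were seen. The 10 outside it in that fit were Nop58, Nolc1, Nop2, Rrp9, Srm, Odc1, Cad, Noc3l, Noc4l and Imp4. With the letter as a block the SE went from 0.20 to 0.08 for Nop2 and from 0.15 to 0.07 for Imp4, while that of Odc1 stayed at 0.05.

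Same-letter arrays deviated together at 42 h, with correlations of 0.60, 0.25 and 0.33 for letters A, B and C. With the letter as a block, 11 of 37 factors passed (29.7%), against 28.4% of all genes. Of these 10 were higher (27% of the factors), against 13.9% of all genes, and 1 was lower. The differences between these shares were not tested. The 5 factors above were all among them. Polr1b, Ddx18, Ddx21, Rrp9, Wdr74 and Imp4 were gained, all higher, with adjusted p from 0.00187 for Rrp9 to 0.0336 for Ddx18 (limma).

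**Figure D2:**
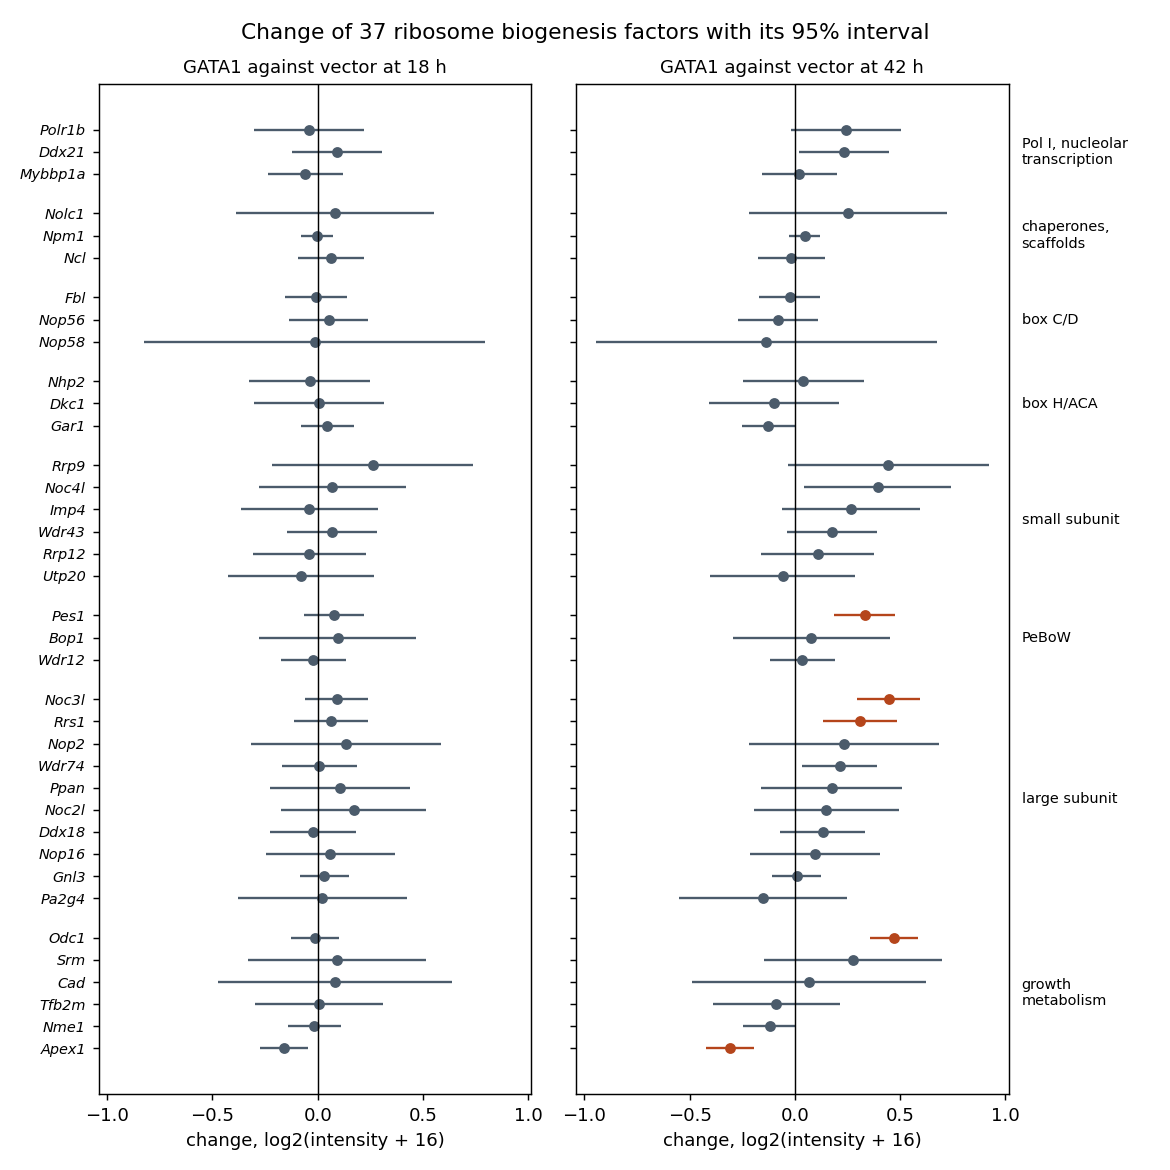
Change between GATA1 and vector arrays (horizontal axis, log2(intensity + 16)) at 18 h on the left and 42 h on the right, 1 row per factor grouped by role, with a point at the estimate and a line over its 95% interval. Red marks the 5 factors with adjusted p under 0.05 in the fit without the replicate letters, all at 42 h.

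At 18 h no factor passed the test (limma). In the fit without the letters 1 of 37, Apex1, had an unadjusted p under 0.05, against 9.82% of all genes. With adjustment 1.85% of all genes were called. The values reached from -0.16 for Apex1 to 0.26 for Rrp9. Of them 23 were positive and 14 negative, with a median of 0.03, which turned to -0.01 without vector 18 h replicate A or without GATA1 18 h replicate B. The median over all genes tested was -0.011. In the same fit the 95% intervals of 33 factors lay within 1.5-fold in both directions, and those of Nop58, Nop2, Rrp9 and Cad did not. The same bound held 82.5% of all genes. The letter as a block gave 0 calls as well, against 3.33% of all genes. With it the SE at 18 h went from 0.36 to 0.12 for Nop58 and from 0.20 to 0.08 for Nop2. It went from 0.21 to 0.07 for Rrp9 (limma, adjusted p = 0.0892) and from 0.25 to 0.22 for Cad.

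The effect of GATA1 differed between the times for Odc1 and for no other factor in the fit without the letters. The difference between its 42 h and 18 h effects was 0.49 with an SE of 0.07 (limma, adjusted p = 0.00509), so 1 of 37 factors passed, against 4.66% of all genes in either direction and 2.29% upward. Without the 4 arrays lettered A it was 0.43 with an adjusted p of 0.0801, and in its second probe set the difference was 0.41 with an adjusted p of 0.12. The next largest was Noc3l with 0.36 (adjusted p = 0.0757). Noc3l passed with the letter as a block (adjusted p = 0.0418, where 7.86% of all genes were called), with array weights (0.0385) and without vector 42 h replicate C (0.0447). For Pes1, Rrs1 and Apex1, a call at 42 h and none at 18 h is not shown to be a difference between the times.

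In vector cells no factor changed between 18 h and 42 h by limma's test, as was true of almost all genes (0.0186% called), and 2 factors, both higher, had an unadjusted p under 0.05 (5.41%, against 6.28% of all genes). The values were positive for 29 of 37, with a median of 0.06, against 4616 of 10759 genes and a median of -0.011 over all genes tested. Between same-letter arrays the median was 0.11 in letter A, 0.00024 in B and 0.075 in C. In letter B 19 values were positive and 18 negative. The largest was that of Noc2l, 0.38 (adjusted p = 0.711), with 1022, 1475 and 1235 at 18 h and 1520, 1818 and 1510 at 42 h. Its lowest array at 18 h was letter A, and the groups did not overlap. The lowest value was that of Tfb2m, -0.11, with 2310, 2637 and 1908 at 18 h and 2133, 2331 and 1841 at 42 h, which overlapped.

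In GATA1 cells 5 factors rose between 18 h and 42 h and none fell by limma's test (1 with an unadjusted p under 0.05, Apex1), against 14.6% of all genes in either direction and 6.72% upward. They were Odc1 (0.45), Rrs1 (0.39), Pes1 (0.37), Noc3l (0.37) and Wdr74 (0.27). The second probe set of Pes1 gave 0.036 (adjusted p = 0.936), and Rrs1 lost its call without the arrays lettered A (0.061), at its second probe set (0.180) and with probe sets of plain suffix (0.161). The Rrs1 arrays listed above, between 4142 and 4355 at 18 h and between 5477 and 5630 at 42 h, did not overlap. Wdr74, a WD-repeat protein of large subunit maturation, read 1405, 1621 and 1600 and then 1646, 2018 and 1948. Its adjusted p was 0.0479 and its call was lost in 16 of 22 alternatives, among them leaving out any of 11 arrays. Below the threshold the lowest value was that of Tfb2m, -0.21, with 2485, 2312 and 2056 at 18 h and 2150, 2011 and 1762 at 42 h. This comparison shares its 42 h arrays with the first one, so the calls are not independent of those above.

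Levels over all factors also varied between arrays of a group. The median deviation of the 37 factors from their means over all arrays was lowest on the letter A arrays at 18 h, -0.16 with vector and with GATA1, and highest on GATA1 42 h replicate C, 0.22. These 2 low arrays held the lowest reading of 18 factors, and replicate C the highest of 17. The SD of this measure within groups was 0.08. An 18S ribosomal RNA control probe set, on the log2 scale, read from 8.32 to 12.4 on letter A arrays, 5.53 to 10.6 on letter B and 4.79 to 6.75 on letter C, and its part in these levels was not tested. Without the letter A arrays 6 factors and 1749 genes in all passed at 42 h, and the median of the factors was 0.17.

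**Figure D3:**
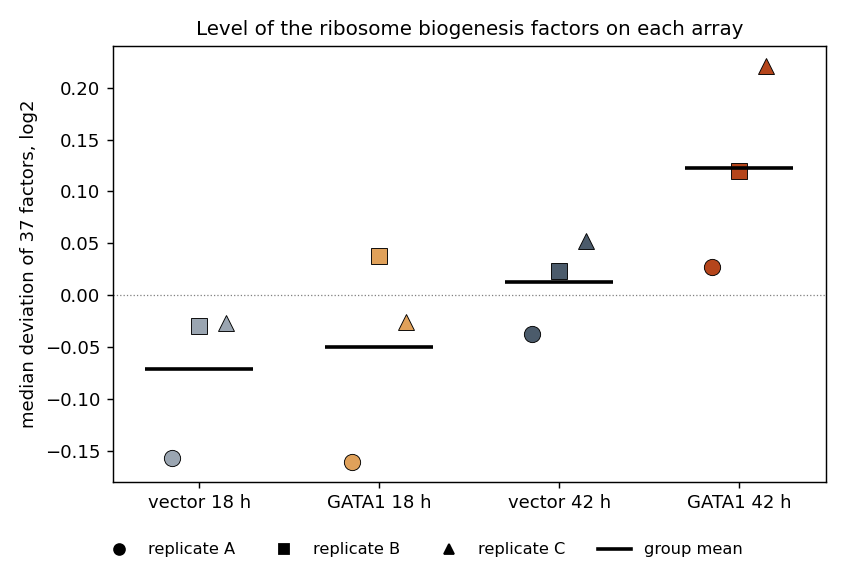
Median over the 37 factors of the deviation of each array from the factor's mean over 12 arrays (vertical axis, log2), with replicate letters as shapes and bars at group means. The letter A array is the lowest of its group in all 4 groups, at -0.16 in both groups at 18 h, and GATA1 42 h replicate C is the highest at 0.22.

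Genes that act with these factors were read from other lists. Of 13 other RNA polymerase I genes, 2 rose and 1 fell at 42 h, with a median of 0.06. Rrn3, the initiation factor that couples polymerase I to growth signals, went from 1073 to 1494, a rise of 0.47 (limma, adjusted p = 0.000807). The subunit gene Polr1e rose by 0.36, and Znrd1, a small subunit of the same enzyme, fell by 0.45. Of 36 other small subunit factors 3 rose and none fell, led by Bysl (0.61), with Pwp2 at 0.27. Of 49 other large subunit factors 5 rose and none fell, led by Nol10 (0.59) and the GTPase Gtpbp4 (0.48). Of 8 other snoRNP genes 3 rose, among them the assembly factors Znhit3 (0.43) and Naf1 (0.35). Their medians, 0.11, 0.13 and 0.14, stood beside 0.09 for the 37 factors, and these lists gave 0 calls at 18 h by limma, where 1 of their genes had an unadjusted p under 0.05. Of all genes tested, 10.3% were called higher and 10.6% lower at 42 h. At 18 h 1.85% of all genes were called, and 9.82% had an unadjusted p under 0.05. The shares of these lists were not tested against those of all genes.

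The polyamine genes moved in both directions. Of 7 tested, Odc1 and Smox rose at 42 h and Sat1 and Oaz2 fell, where 20.9% of all genes were called in either direction. Smox, spermine oxidase, went from 33.6 ± 7.33 (SD, n = 3) to 386 ± 189, a rise of 2.93. Sat1, the acetyltransferase that starts polyamine breakdown, fell by 0.94, from 3165 to 1633. Oaz2, an antizyme that targets ornithine decarboxylase for degradation, fell by 0.47, from 492 to 351. Srm is also in this list.

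The MYC network was read because many of the 37 genes are MYC targets. Myc read 2517 ± 390 (SD, n = 3) with vector and 2479 ± 303 with GATA1 at 42 h, a change of -0.02, and Mycn 35235 ± 2123 and 31858 ± 1820, a value of -0.15 (limma, adjusted p = 0.995 and 0.110). Mycl lay near 5.5 in all groups and was not tested. Among partners and antagonists, Mxd4 fell from 219 to 43.3, by 1.97, while Mxd1 rose by 0.60 and Mlx by 0.47. Mxd1 and Mxd4 encode repressors that compete with MYC for its partner Max. Max, Mnt, Mxi1 and Mxd3 did not pass, and the interval for Max is wide because its SE was 0.85. At 18 h limma called 0 genes of this network, and 1 had an unadjusted p under 0.05, against 1.85% and 9.82% of all genes.

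**Figure D4:**
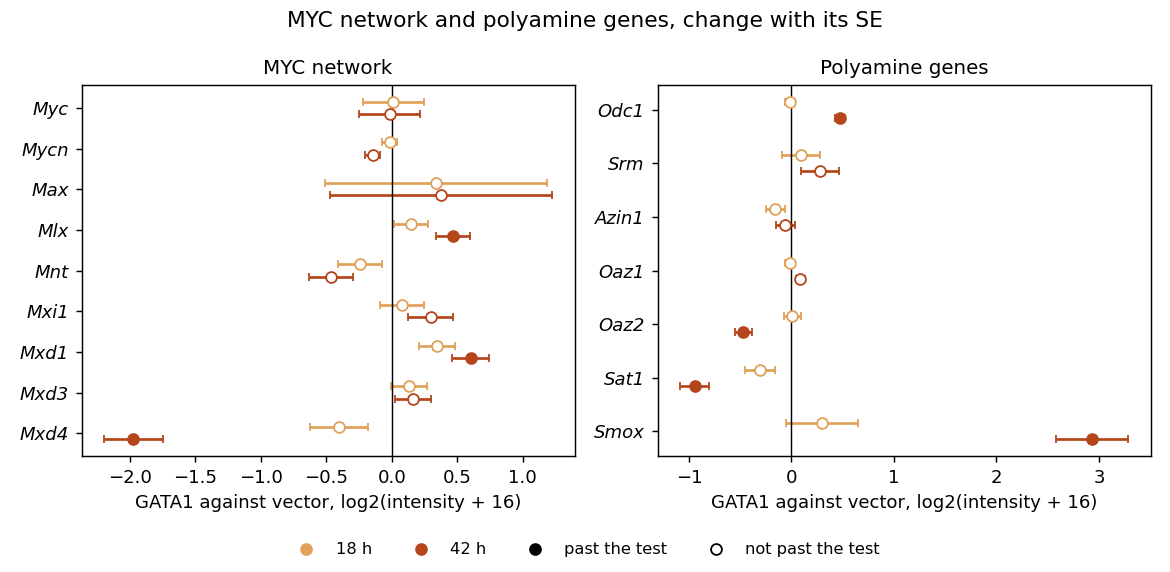
Change between GATA1 and vector arrays (horizontal axis, log2(intensity + 16)) for 9 MYC network genes and 7 polyamine genes at 18 h (light) and 42 h (dark), with bars of 1 SE and filled points for adjusted p under 0.05. At 42 h Mxd4 lies at -1.97 and Smox at 2.93, while Myc stays at -0.02.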

How the data were processed

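The authors deposited 1 table of linear intensity values for 45101 probe sets on 12 arrays. Per the submitters' processing notes GCRMA and MAS5 were used, without versions and without saying which made these values. The build was not given in the sources used here. Medians of the arrays ranged from 8.05 to 8.29, and no further normalization was applied. Platform annotation gave 1 symbol for 34945 probe sets, several for 932 and none for 9160, and 64 were controls. Of the single-symbol probe sets 34741 matched RefSeq GRCm38.p6, with 0 symbols updated. The brightest probe set stood for a gene. Genes above the array median on at least 3 arrays were tested, 10759 in all.

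Values were analysed as log2(intensity + 16) in R 4.3.3 by limma 3.58.1 (functions lmFit and eBayes) with 4 group means, in 5 comparisons, two-sided, with Benjamini-Hochberg adjustment at 0.05. The fit was tested on simulated data. The number of arrays limits the precision. The members and lists were chosen with earlier results of these data known. Named in full were the factors with the largest changes past the threshold in each comparison or, where none passed, the largest value in that direction. From other lists at most 4 genes were named, by size of change, beside the MYC network and the label checks Gata1, Gata2 and Kit. Alternatives were other pseudocounts, filters, scalings, probe sets and array weights, the replicate block, and leaving out arrays.

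The fit above has no block. A fit with the letter as a block was an alternative, and the letters were taken to pair the arrays, so that its result stands beside the first one where it changes it, if every same-letter pair of a comparison correlated above 0.1 in its deviations from group means. This was so within 18 h (0.66, 0.31 and 0.65), within 42 h and for vector over time (0.54, 0.38 and 0.36), and not for GATA1 over time (0.57, 0.05 and 0.61), where the block is given as a sensitivity value only. The labels do not say what a letter marks.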

Additional observations from a re-analysis of the deposited data

Results flagged for a closer look

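The effect of GATA1 on Odc1 differed between 42 h and 18 h by 0.49 on the log2 scale in a test of the difference itself (limma, adjusted p = 0.00509). The change was -0.016, -0.00145 and -0.024 in letters A, B and C at 18 h and 0.58, 0.51 and 0.32 at 42 h. In all 3 letters the 42 h value was the higher one. These letters are the same arrays as in the test. The call was lost without the arrays lettered A (limma, adjusted p = 0.0801) and at the second probe set (adjusted p = 0.12).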

How the results depend on the processing

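Of 24 alternatives, 12 left out 1 array each. No called change reversed its direction under any of them, and the counts of calls stayed at 0 at 18 h and for vector over time. The calls of Odc1 and Noc3l at 42 h held under all alternatives run. Leaving out 1 array gave 4 to 6 called factors at 42 h with a median change of 0.049 to 0.189, 1 to 2 for the difference between the times and 4 to 6 for GATA1 over time. The count for the difference rose to 2 without vector 42 h replicate C. The letter as a replicate block gave 11 called factors at 42 h, 2 for the difference (7.86% of all genes) and 11 for GATA1 over time (21.5% of all genes). The second brightest probe set gave 3, 0 and 2 respectively, with 1560, 315 and 1021 genes called in all. Array weights gave 2 for the difference and 9 for GATA1 over time, with 736 and 2929 genes in all. Leaving out the arrays lettered A gave 0 for the difference, with 259 genes in all. The causes were not tested. At the second probe set 20 of 25 factors had the same sign at 42 h, and of the 5 calls those of Odc1 and Noc3l passed there too. The sign differed for Ncl, Npm1, Wdr12, Mybbp1a and Pa2g4, which passed at neither probe set. Where the spread was wide, as for Nop58 and Cad, the fit without the letters cannot show changes inside its intervals at 42 h. These reached from -0.95 to 0.67 for Nop58 and from -0.49 to 0.62 for Cad, and so past 1.5-fold. With the letter as a block the SE at 42 h went from 0.36 to 0.12 for Nop58 and from 0.25 to 0.22 for Cad. Neither gene passed there.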

Other observations

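The protein parts of the ribosome itself were compared with the factors that build it. Of 45 tested genes of cytosolic ribosomal proteins 1 rose and 1 fell at 42 h, 38 values were negative and the median was -0.05. Of 76 genes of mitochondrial ribosomal proteins 10 rose and 1 fell, 57 values were positive and the median was 0.10. At 18 h the calls were 0 and 1. In the RNA exosome, which trims ribosomal RNA precursors, 2 of 13 genes rose at 42 h, the cofactor Mphosph6 by 0.65 and the nuclease Dis3 by 0.46. Of 15 genes of pyrimidine and purine synthesis Prps1 rose by 0.37, while Ctps2 fell by 0.73 and Prps2 fell by 0.47. Prps1 and Prps2 encode forms of the enzyme that makes the common ribose phosphate precursor. Of all genes tested, 10.3% were called higher and 10.6% lower at 42 h, with a median change of 0.0011, and 1.85% were called at 18 h. The differences between lists, and from all genes, were not tested.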
